A study of Oryza sativa with 16 samples.

Results

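Lsi1 and Lsi2 are the genes of rice's silicon influx and efflux transporters, and they were followed here through 6 hormone treatments of whole seedlings. The members were the probe sets annotated to LOC4330713 (Lsi1, also named OsNIP2;1) and LOC4331328 (Lsi2). Each gene had 1 probe set, so the 2 members were 2 of the 22436 probe sets with a single annotated gene, and 2 of 17905 genes. The seedlings were 7 days old, of the indica variety IR64, grown in hydroponic culture and then kept for 3 h in a hormone solution or in water. The hormone groups were IAA (indole-3-acetic acid, an auxin) and BAP (benzyl aminopurine, a cytokinin) at 50 µM, and ABA (abscisic acid), ACC (1-aminocyclopropane-1-carboxylic acid, the precursor of ethylene), SA (salicylic acid) and JA (jasmonic acid) at 100 µM. Each had 2 arrays described as biological replicates, and the water controls formed 2 groups of 2 arrays, control1 and control2, which the labels tie to no hormone. All 16 arrays were of the same variety, age and culture, and no group carried a mutation or transgene.

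Rice takes up silicon as silicic acid and carries large amounts of it to the shoot, where it stiffens leaves and husks. Lsi1 is a channel of the NIP group of the aquaporin family and lets silicic acid enter root cells. Lsi2 is a transporter of another protein family that moves silicic acid out of the same cells toward the stele. Both proteins sit in the exodermis and endodermis of the root, Lsi1 on the outer and Lsi2 on the inner face of the cell. Their transcripts are therefore known mainly from roots, while these RNA samples came from whole seedlings. In such bulk samples fewer cells of a type and less RNA per cell cannot be told apart.

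Values are GCRMA levels on a scale taken as log2, where a difference of 1 is a 2-fold change. Changes are the mean of the 2 hormone arrays minus the mean of the 4 control arrays, ± SE, from limma with Benjamini-Hochberg adjustment over 24100 tested probe sets and a threshold of 0.05. In poly-A spike-in transcripts the 5' minus 3' probe set signal was -1.38 to -1.09 log2 units on the 6 arrays of IAA, BAP and control1 and -1.05 to -0.59 on the other 10 arrays. The 3' minus 5' difference of actin, a measure of RNA quality, ran from 0.42 to 1.09 and from 1.02 to 1.59 on the same sets of arrays. A probe set of the hybridization control BioB averaged 6.30 to 6.47 in the groups IAA, BAP, ABA and control1 and 7.64 to 8.56 in the other 4 groups. The hormone changes of Lsi1 and Lsi2 are therefore also given against control1 alone and control2 alone, and those of other genes are against the 4 controls unless a control set is named. Array number limits the precision of every value.

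Both genes were bright in water controls, and both had their lowest level under ABA. Lsi2 stood at 6.17 and 4.22 on the ABA arrays, against 11.71 and 11.27 on the control1 arrays and 12.61 and 12.34 on the control2 arrays. The 2 ABA arrays lay far below all controls, and they also differed from each other by more than any other pair of Lsi2 replicates. Lsi1 stood at 11.10 and 11.27 under ABA, against 13.33 and 13.16 in control1 and 13.89 and 13.78 in control2. The ABA arrays of Lsi1 were close to each other and again below all 4 controls. Both arrays lay below all 4 controls for 34% of the tested probe sets under ABA.

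**Figure D1:**
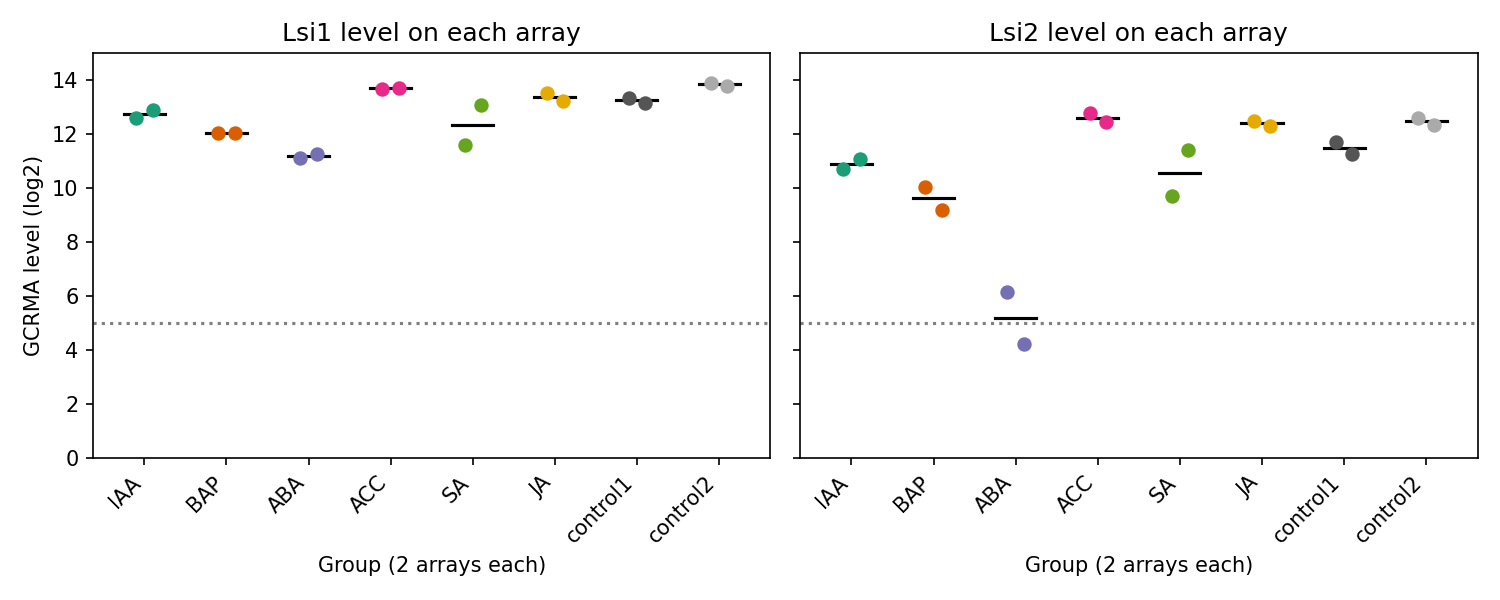
GCRMA levels (log2) of Lsi1 and Lsi2 on each of the 16 arrays, by group, with points for arrays, bars for the mean of 2 arrays and a dotted line at the log2 value of 5 used as the filter. Lsi2 drops to 6.17 and 4.22 under ABA, and the SA arrays lie apart from each other for both genes.

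ABA lowered both silicon transporter genes, Lsi2 most of all. Lsi2 averaged 5.19 ± 1.38 under ABA and 11.98 ± 0.61 in the controls (SD, n = 2 and 4), a change of -6.79 ± 0.56 (adjusted p = 1.54e-06 by limma), or about 111-fold lower. This was the largest fall of all 24100 tested probe sets against the 4 controls and against control2 (-7.28), and the 7th largest against control1 (-6.30). The second ABA array lay under the log2 value of 5, where background correction weighs most, so the fold depends on low values. Without that array the change was -5.82, and without the other ABA array it was -7.76. Lsi1 averaged 11.19 ± 0.12 under ABA and 13.54 ± 0.35 in the controls, a change of -2.35 ± 0.32 (adjusted p = 8.42e-05 by limma), or 5.12-fold lower. It was the 433rd largest fall, with -2.06 against control1 and -2.65 against control2. Thus 2 of 2 members were called lower, where 26.9% of all tested probe sets were (29.7% against control1 and 27.7% against control2).

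Compared directly with ACC, given at the same dose and needing no control array, ABA also gave lower levels of both genes. The 2 groups differed in the hybridization control BioB, which averaged 6.47 under ABA and 8.18 under ACC. The ACC arrays held Lsi2 at 12.76 and 12.45 and Lsi1 at 13.67 and 13.70. ABA minus ACC was -7.41 ± 0.65 for Lsi2 (adjusted p = 3.41e-06 by limma) and -2.50 ± 0.37 for Lsi1 (adjusted p = 0.000208). In this comparison 22.3% of tested probe sets were called lower.

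BAP came next, with a fall that passed for Lsi1 and missed the threshold for Lsi2. Lsi1 stood at 12.02 and 12.05 under BAP, with the control arrays between 13.16 and 13.89. The change was -1.50 ± 0.32 (adjusted p = 0.0452 by limma), or 2.84-fold lower, and was the 93rd largest fall. Lsi2 stood at 10.06 and 9.20 under BAP, with the controls between 11.27 and 12.61. Its change of -2.35 ± 0.56 was larger than that of Lsi1 but had a wider error (adjusted p = 0.0721, 95% interval -3.57 to -1.13). Under BAP 1 of 2 members was called lower, where 0.469% of tested probe sets were, and for both genes the BAP arrays lay below all 4 controls, as for 11.6% of probe sets. Against control1, which shares the spike-in range of BAP, Lsi1 changed by -1.21 (adjusted p = 0.143) and Lsi2 by -1.86 (adjusted p = 0.233), neither past the threshold, where 0.357% of probe sets were called lower. Against control2 the values were -1.80 (adjusted p = 0.00291) and -2.84 (adjusted p = 0.00527), where 11.4% were. With the 4 controls together, the call for Lsi1 was also lost on leaving out any 1 of the 6 arrays except control1 replicate 2, with adjusted p up to 0.317.

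IAA gave smaller values in the same direction. Lsi1 stood at 12.58 and 12.89 and Lsi2 at 10.69 and 11.09 under IAA, below all 4 controls for both genes, as for 14% of tested probe sets. The changes were -0.81 ± 0.32 for Lsi1 (adjusted p = 0.173 by limma) and -1.09 ± 0.56 for Lsi2 (adjusted p = 0.28), so 0 of 2 members were called, where 1.74% of probe sets were called lower. At an unadjusted threshold of 0.05 only Lsi1 passed. Against control1 Lsi1 changed by -0.51 (adjusted p = 0.551) and Lsi2 by -0.60 (adjusted p = 0.734), where 0.734% of probe sets were called lower. Against control2 Lsi1 changed by -1.10 and passed (adjusted p = 0.0247), and Lsi2 changed by -1.58 (adjusted p = 0.0586), where 14% were called lower.

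The auxin and the cytokinin, given at one dose and in the same spike-in range, were also compared with each other. BAP minus IAA was -0.70 ± 0.37 for Lsi1 (95% interval -1.50 to 0.11, adjusted p = 0.49 by limma) and -1.26 ± 0.65 for Lsi2 (95% interval -2.67 to 0.15, adjusted p = 0.468). Neither passed, also before adjustment, where 2.87% of tested probe sets did in either direction. Both intervals run from a lower level under BAP to 0 and just above it.

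The 2 SA arrays disagreed for both genes. Lsi1 stood at 11.60 on the first SA array and 13.08 on the second, against 13.16 to 13.89 in the controls, and Lsi2 at 9.71 and 11.40, against 11.27 to 12.61. The first array was lower than the second for both genes. Both lay below all 4 controls for Lsi1, as for 18.1% of tested probe sets, and the second lay within the control range for Lsi2. The mean change was -1.20 ± 0.32 for Lsi1 (adjusted p = 0.0366 by limma), 2.3-fold lower, and -1.43 ± 0.56 for Lsi2 (adjusted p = 0.134), so 1 of 2 members was called, where 4.67% of probe sets were called lower. Without the first SA array the change of Lsi1 was -0.46 (adjusted p = 0.428) and without the second it was -1.94 (adjusted p = 0.00141). The call was also lost without control1 replicate 1, control2 replicate 1 or control2 replicate 2, with adjusted p from 0.0551 to 0.0594. For Lsi2 the same values were -0.59 and -2.27, neither past the threshold. Against control2 alone Lsi1 changed by -1.50 (adjusted p = 0.015) and Lsi2 by -1.92 (adjusted p = 0.0619), and against control1 alone by -0.91 (adjusted p = 0.0587) and -0.94 (adjusted p = 0.257), where 4.21% and 16% of probe sets were called lower.

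Under ACC and JA neither gene passed the test, and the 95% intervals against the 4 controls ran to both sides of no change. Under ACC Lsi1 changed by 0.15 ± 0.32 (95% interval -0.55 to 0.84, adjusted p = 0.867 by limma) and Lsi2 by 0.63 ± 0.56 (-0.59 to 1.84, adjusted p = 0.628). Under JA Lsi1, at 13.50 and 13.21, changed by -0.18 ± 0.32 (-0.88 to 0.51, adjusted p = 0.797) and Lsi2, at 12.49 and 12.30, by 0.41 ± 0.56 (-0.81 to 1.63, adjusted p = 0.733). None of these 4 values passed at an unadjusted threshold of 0.05 either. In either direction 0.614% of tested probe sets were called under ACC and 5.96% under JA. Against control1 alone these shares were 23.9% under each hormone, and against control2 alone 0.34% and 6.8%, and neither gene was called in any of them. Under ACC and JA Lsi1 changed by 0.44 and 0.11 against control1, and Lsi2 by 1.12 and 0.90. Against control2 the changes were -0.15 and -0.48 for Lsi1, and 0.13 and -0.08 for Lsi2. SA minus JA was -1.02 ± 0.37 for Lsi1 (adjusted p = 0.148 by limma) and -1.84 ± 0.65 for Lsi2 (adjusted p = 0.134), so both passed before adjustment and neither after it, where 5.67% of probe sets did. Without the second SA array the value of Lsi1 was -1.76 and passed (adjusted p = 0.00521), and without the first it was -0.28.

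**Figure D2:**
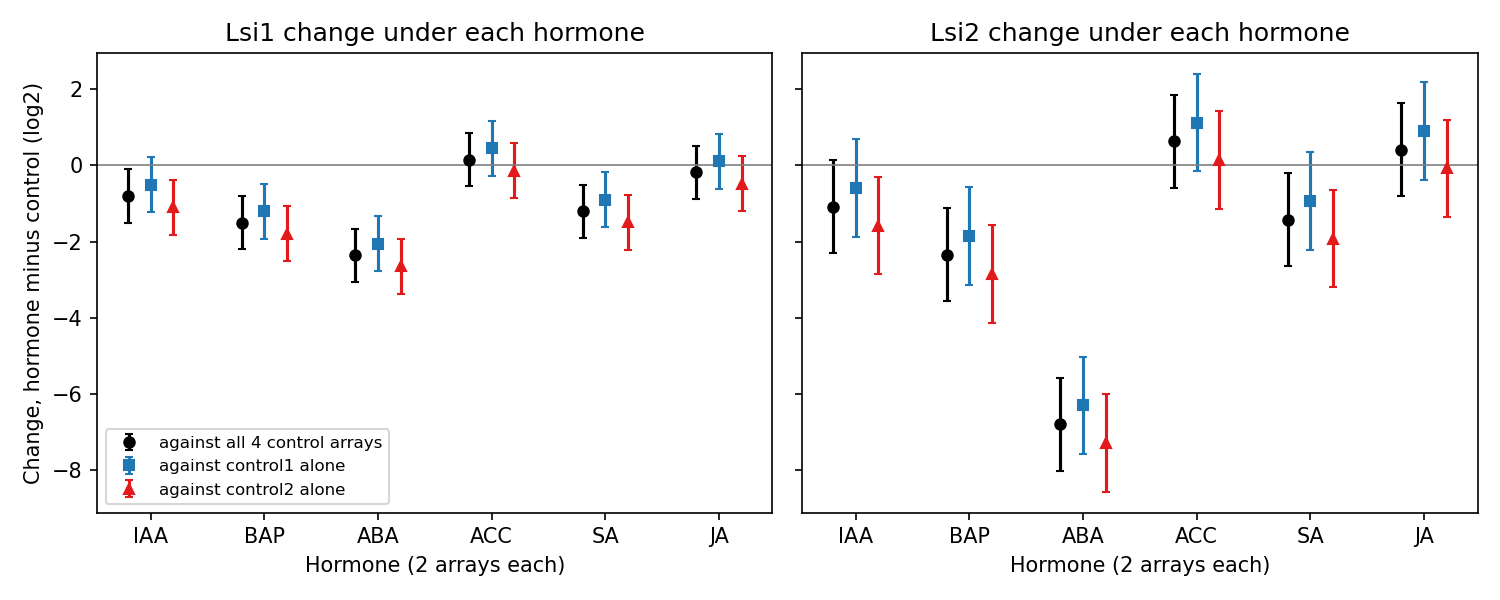
Changes (log2, hormone minus control) of Lsi1 and Lsi2 under 6 hormones against all 4 control arrays, control1 alone and control2 alone, with 95% intervals from limma. Under ABA the intervals lie below 0 for both genes with each choice of controls, and every change is lower against control2 than against control1.

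The water controls set the scale for these changes. Control2 exceeded control1 by 0.59 ± 0.33 for Lsi1 (adjusted p = 0.23 by limma) and by 0.98 ± 0.59 for Lsi2 (adjusted p = 0.26). Neither gene was called, where 21.1% of tested probe sets were, and neither passed before adjustment. Both control2 arrays lay above both control1 arrays for each gene, as for 33.2% of probe sets. From low to high, Lsi1 ran through ABA, BAP, SA, IAA, control1, JA, ACC and control2. The ranges of BAP and SA, of SA and IAA, and of control1 and JA overlapped. Lsi2 ran through ABA, BAP, SA, IAA, control1, JA, control2 and ACC. The ranges of BAP and SA, of SA and IAA, and of SA and control1 overlapped. Among JA, control2 and ACC each pair of ranges overlapped. The 6 lowest groups came in the same order for both genes. ABA was 0.85 below BAP for Lsi1 and 4.44 below it for Lsi2.

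The group means of Lsi1 and Lsi2 ran in the same order except for ACC and control2. Across the 16 arrays Pearson's r was 0.91 and Spearman's rho 0.95, and over the 14 arrays without ABA, the pair farthest from the Lsi1 median, r was 0.95. These are descriptions, since arrays of a group share a treatment and a spike-in range. Within groups, over deviations from the group means, r was 0.55 and rho 0.31. The 2 arrays of ABA, of BAP and of ACC ran opposite ways for the 2 genes. Relative to the control mean, Lsi1 and Lsi2 were at -1.94 and -2.27 on the first SA array and at -0.46 and -0.59 on the second.

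Under ABA the mean change of Lsi2 exceeded that of Lsi1 more than under any other hormone. The change of Lsi2 minus the change of Lsi1 was -4.43 ± 1.5 under ABA, -0.85 ± 0.62 under BAP, -0.28 ± 0.06 under IAA, -0.23 ± 0.15 under SA, 0.48 ± 0.25 under ACC and 0.59 ± 0.07 under JA (SD, n = 2). The value was -3.37 and -5.49 on the single ABA arrays and between -0.33 and 0.28 on the 4 control arrays. A two-sided exact permutation test over 2 treated and 4 control arrays gave p = 0.0667 for ABA, BAP and JA, the smallest p this design allows. After Benjamini-Hochberg adjustment over the 6 hormones this exact p became 0.133. A difference between the genes could therefore not reach the threshold in this test.

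**Figure D3:**
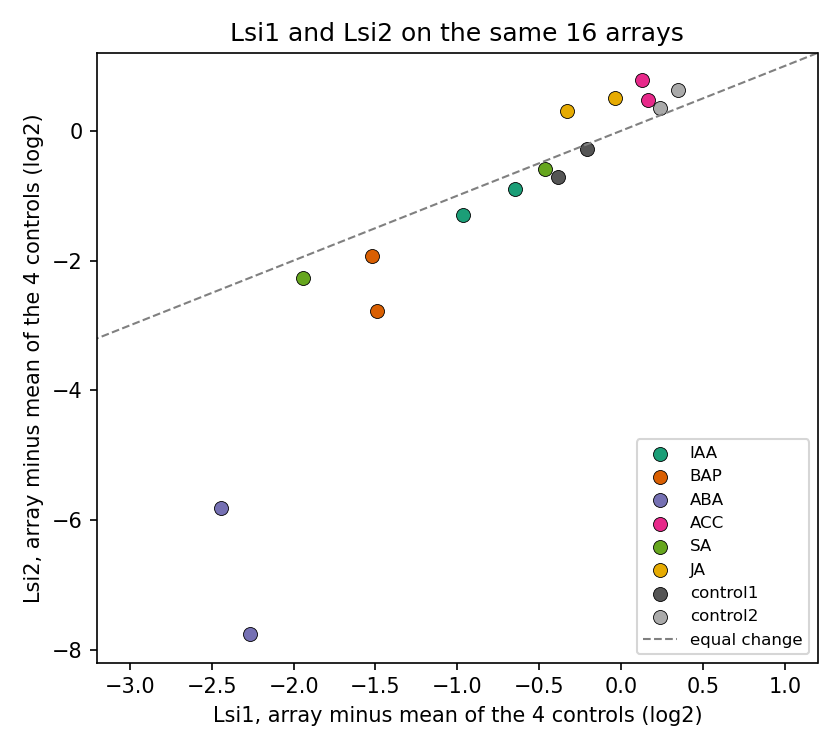
Lsi1 (horizontal) and Lsi2 (vertical) on each of the 16 arrays, as log2 differences from the mean of the 4 control arrays, with a dashed line where both change equally. The 2 ABA arrays lie farthest from the line, at -3.37 and -5.49, and the other 14 arrays between -1.29 and 0.65.

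Other genes of the silicon pathway and the NIP channel group were also measured. Beside Lsi1 and Lsi2 the list held 4 genes with a probe set, of which Lsi6 and NIP1-1 passed the filter, and NIP3-1 and NIP4-1 stayed below a log2 value of 5 on all arrays. Lsi6 (OsNIP2;2) is the close relative of Lsi1 that unloads silicic acid from the xylem in the shoot. It stood at 9.26 and 8.97 under ABA, against 11.06 to 11.63 in the 4 controls, a change of -2.24 ± 0.16 (adjusted p = 5.13e-07 by limma). Its probe set is of a type in which some probes may match other transcripts, so signal from a related gene cannot be told apart. The same limit holds for the probe sets of TIP3-1, PIP2-2, NRT2.3 and AKT1, named below. Under SA Lsi6 stood at 10.25 and 10.49, a change of -0.99 ± 0.16 (adjusted p = 0.00309), and here the 2 arrays were close together.

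Under BAP and IAA Lsi6 did not pass. Its changes were -0.15 ± 0.16 under BAP (adjusted p = 0.695) and 0.08 ± 0.16 under IAA (adjusted p = 0.797). NIP1-1, another member of the NIP group, stood at 9.53 and 9.55 under ABA, against 10.39 to 11.07 in the controls, a change of -1.17 ± 0.19 (adjusted p = 0.000385). Under the other 5 hormones it did not pass against the 4 controls, but its calls there depended on the control set. Against control1 alone it was called lower under ACC (-0.42) and SA (-0.59), and against control2 alone higher under IAA (0.38) and BAP (0.43). Against control1 23.9% of all tested probe sets were called in either direction under ACC, and 16% were lower under SA. The shares higher under IAA and BAP against control2 are not given here. Between the control sets 21.1% of all tested probe sets were called. Without Lsi1 and Lsi2, 2 of 2 tested genes of the list were called lower under ABA against the 4 controls and against each control set alone, where 26.9% of all tested probe sets were lower against the 4 controls. Their median change was -1.71, where the median of all tested probe sets was -0.07.

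The other aquaporins, the water channel family to which Lsi1 belongs by sequence, moved in both directions. Of 18 tested PIP, TIP and SIP genes, 3 rose and 4 fell under ABA, with a median change of -0.01, where 21.2% of all tested probe sets rose and 26.9% fell. TIP3-2 and TIP3-1, of the vacuolar membrane group known from seeds, rose by 5.75 ± 0.25 (adjusted p = 6.74e-09 by limma) and 4.72 ± 0.35 (adjusted p = 7.16e-07). SIP2-1 and SIP1-1 fell, with changes of -1.10 ± 0.20 and -0.73 ± 0.10. Under BAP and SA 0 of 18 were called against the 4 controls, where 0.817% of all tested probe sets rose and 0.469% fell under BAP, and 4.53% rose and 4.67% fell under SA. Against control1 alone 2 were higher and 4 lower under SA, where 16% of all tested probe sets were lower. Against control2 alone 2 were higher and 2 lower under BAP, where 11.4% of all tested probe sets were lower. The shares that were higher are not given here. Under JA PIP2-5 (-1.67 ± 0.31) and PIP2-2 (-0.77 ± 0.20) fell and SIP2-1 rose (0.90 ± 0.20), and under ACC PIP2-2 fell (-1.07 ± 0.20). In either direction 5.96% of all tested probe sets were called under JA and 0.614% under ACC. Against control2 alone 0 rose and 1 fell under JA, where 6.8% were called. Under ACC 0 rose and 0 fell against control2, where 0.34% were called. Against control1 alone 3 rose and 7 fell under JA, and 2 rose and 7 fell under ACC. There 23.9% of all tested probe sets were called under each hormone.

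Genes for uptake and transfer of other minerals in roots gave 8 falls and 2 rises among 17 tested genes under ABA, with a median of -0.51. Of all tested probe sets 26.9% fell and 21.2% rose. Among the genes that fell were the manganese and cadmium transporter gene NRAMP5 (-2.74 ± 0.22) and the nitrate transporter gene NRT2.3 (-3.56 ± 0.55). Others were the iron-phytosiderophore transporter gene YSL15 (-1.35 ± 0.20) and NAAT1, of phytosiderophore synthesis (-0.83 ± 0.12). Under SA 4 fell and 2 rose, where 4.67% of all tested probe sets fell and 4.53% rose. YSL15 changed by -0.96 ± 0.20, NRAMP5 by -0.89 ± 0.22 and the phosphate transporter gene PHT1-8 by 1.31 ± 0.22. Under BAP 0 of the 17 rose and 2 fell, where 0.817% of all tested probe sets rose and 0.469% fell. The 2 were the aluminium transporter gene Nrat1 (-2.22 ± 0.28) and PHO1-2, of phosphate transfer to the shoot (-0.89 ± 0.15). Under IAA Nrat1 fell (-1.37 ± 0.28) and the potassium channel gene AKT1 rose (1.14 ± 0.16). Of all tested probe sets 1.74% fell and 2.4% rose under IAA. Against control1 alone 0 of the 17 fell and 1 rose under IAA, where 0.734% of all tested probe sets fell. Against control2 alone 2 fell and 4 rose under IAA, where 14% of all tested probe sets fell. Under JA 0 of the 17 rose and 2 fell, NRT2.3 (-3.63 ± 0.55) and Nrat1 (-1.43 ± 0.28). In either direction 5.96% of all tested probe sets were called under JA.

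Genes of the Casparian strip membrane protein (CASP) family, all but OsCASP1 being CASP-like (CASPL) relatives, moved both ways. OsCASP1 did not pass under ABA (-0.03 ± 0.31, adjusted p = 0.952 by limma). Under ABA 8 of 22 tested genes rose and 9 fell, where 21.2% of all tested probe sets rose and 26.9% fell. Examples were OsCASPL5C1 at 3.92 ± 0.28, OsCASPL4B2 at 2.27 ± 0.15, OsCASPL1E1 at 2.25 ± 0.19 and OsCASPL1D1 at -1.49 ± 0.13. OsCASPL1U3 fell under ABA (-1.95 ± 0.19, adjusted p = 7.13e-06 by limma), BAP (-1.09 ± 0.19, adjusted p = 0.0177) and IAA (-1.30 ± 0.19, adjusted p = 0.00304). It rose under JA (1.25 ± 0.19, adjusted p = 0.0032 by limma) and SA (0.78 ± 0.19, adjusted p = 0.0273). Of the 22 genes 1 rose and 3 fell under JA, and 2 rose and 2 fell under SA. Under IAA 1 rose and 2 fell, and under BAP 0 rose and 1 fell. Of all tested probe sets 5.96% were called under JA in either direction. Under SA 4.53% rose and 4.67% fell, under IAA 2.4% and 1.74%, and under BAP 0.817% and 0.469%.

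Root markers mostly fell under ABA, and shoot markers moved both ways. Of 7 root marker genes 6 fell and 0 rose under ABA, where 26.9% of all tested probe sets fell, with a median of -2.74. Among them were the peroxidase gene PRX112 (-4.51 ± 0.27) and the expansin gene EXPA8 (-3.64 ± 0.29). Their summed linear level was 13411 to 16570 on the ABA arrays, against 31654 to 34787 in control1 and 26816 to 29371 in control2, and none was at 0. Of these 7 genes 4 are also in the list of mineral uptake genes. Of 6 shoot marker genes 3 fell and 1 rose under ABA, where 26.9% of all tested probe sets fell and 21.2% rose. Those that fell were PORB, RCA and RBCS, each read from a probe set of the type described for Lsi6. PPDK1 rose (1.16 ± 0.29). The median change of the 6 genes was -0.46. Their summed level was 87252 to 89632 under ABA, against 112106 to 115517 in control1 and 115715 to 141419 in control2. Under SA 3 of the 7 root markers fell, where 4.67% of all tested probe sets did, with a sum of 24405 to 24488. Against control1 alone 6 of them were lower under SA, where 16% of all tested probe sets were. Against control2 alone 2 were, where 4.21% of all tested probe sets were. Under BAP 1 fell, where 0.469% of all tested probe sets did, with a sum of 22255 to 26376. The part of root and shoot content in the changes of Lsi1 and Lsi2 was not tested.

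**Figure D4:**
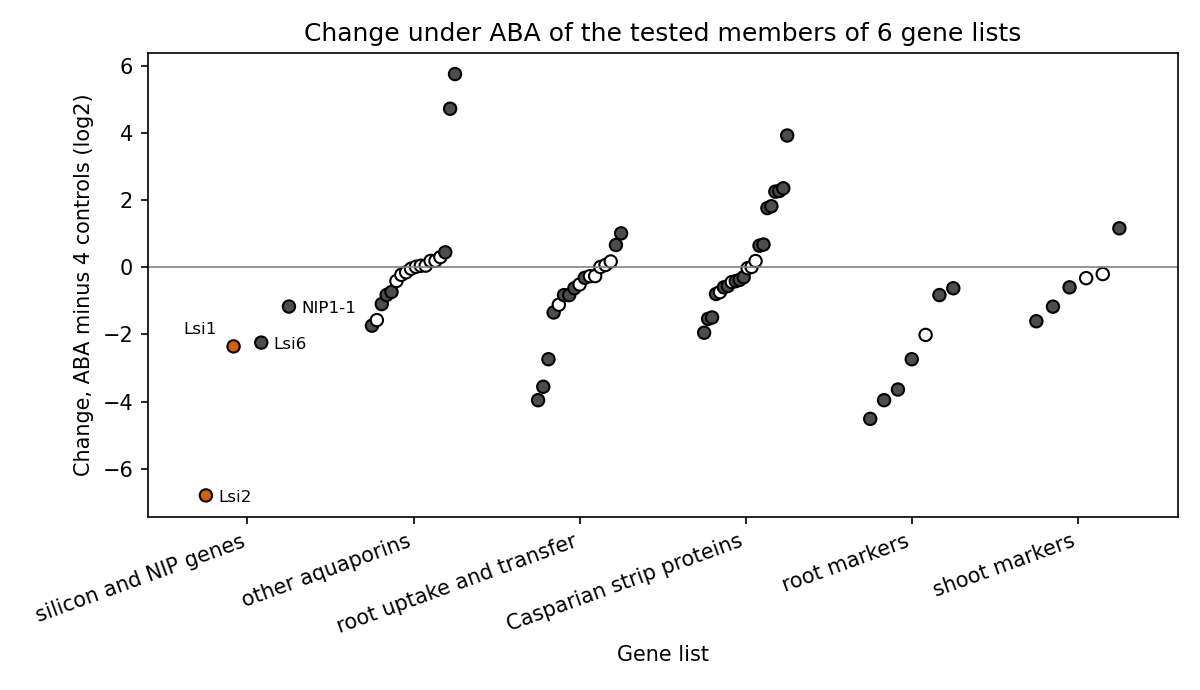
Change under ABA (log2, ABA minus the 4 controls) of each tested member of 6 gene lists, ordered within a list, with Lsi1 and Lsi2 in orange, other called genes filled and genes that did not pass open. The 4 silicon and NIP genes lie at -1.17 or lower. The other aquaporins and the Casparian strip protein family, mostly CASP-like genes, lie on both sides of 0.

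By likeness over the 16 arrays, Lsi2 was the named gene nearest to Lsi1 (Pearson's r = 0.91), and only 4 of the other 24099 tested probe sets were nearer. The named genes after it were AT4 (0.89), the MADS-box gene AGL20 (0.88), OSTB-16 (0.87) and MSRA5 (0.86). AT4 changed by -3.26 under ABA and by -1.45 under IAA. As these genes were picked for likeness over the same arrays, their changes are a description. The changes of AGL20, OSTB-16 and MSRA5 under ABA were smaller, at -1.03, -0.57 and -0.34.

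Lsi2 had 174 probe sets with r over 0.9, among which Lsi1 ranked 122nd. The named genes nearest to Lsi2 were AOS4 (0.96), which encodes an allene oxide synthase of jasmonate synthesis, the glucanase gene GLU14 (0.95), the NPR1 homologue NH3 (0.94), wsl6 (0.92) and OsSTLP2 (0.92). Under ABA AOS4 averaged 5.70 against 11.10 in the controls, a change of -5.39, and GLU14 changed by -4.03, NH3 by -1.84, wsl6 by -1.39 and OsSTLP2 by -2.12. These genes were picked for likeness over arrays that include ABA, so their values under ABA are a description. Under BAP their values ran from -0.98 for AOS4 to -0.02 for OsSTLP2.

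None of the tested neighbours of Lsi1 and Lsi2 in the RefSeq assembly ASM3414082v1 passed under ABA. Of all tested probe sets 26.9% fell and 21.2% rose under ABA, and the rest were not called either. A neighbour was the nearest protein-coding gene with a probe set on each side, so genes between may have been passed over. These neighbours were looked at after the members' values were known. LOC4331327, on one side of Lsi2, stood at 9.33 under ABA and 9.33 in the controls (change 0.00 ± 0.12, adjusted p = 0.986 by limma). The 2 probe sets of LOC4331329, on the other side, changed by 0.21 ± 0.31 (adjusted p = 0.615) and 0.31 ± 0.14 (adjusted p = 0.0832). LOC4330712, beside Lsi1, changed by 0.01 ± 0.13 (adjusted p = 0.952), and LOC4330715, on the other side, stayed at 2.38 under ABA and 2.41 in the controls, under the filter.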

How the data were processed

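Total RNA of whole seedlings was hybridized to Affymetrix rice arrays, 16 in 8 groups. The authors deposited GCRMA values, per the submitters' processing notes, a method that corrects background, normalizes between arrays and summarises the probes of a set. GCRMA version: not given in the sources. From their range the deposited values were read as log2, a base that no source states (0.97 to 16.48, array medians 2.94 to 3.09). Background correction can spread or compress low values.

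Probe sets were named through the platform annotation and the RefSeq gene table (assembly ASM3414082v1), whose coordinates served only to find neighbouring genes, and no sequences were used. Of 57194 rice probe sets, 22436 had 1 gene, 95 several and 34663 none given. The 24100 probe sets with log2 above 5 on at least 2 arrays were tested with limma 3.58.1 in R 4.3.3 (lmFit, eBayes with an intensity trend, two-sided, Benjamini-Hochberg), with the 4 control arrays as 1 group. Control sets were compared, or used singly, in a fit with 8 groups. The procedure was tested on simulated data.

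List symbols were matched to names and synonyms, and those matching several genes (4 of 30 in the mineral uptake list) or none were left out. Of 16 silicon and NIP symbols 6 were not found, of 15 root marker symbols 7, and of 22 shoot marker symbols 15. A list gene was read from its brightest probe set. Named were both members, the silicon and NIP genes, the 5 named genes most correlated with each member, and up to 4 genes per list and hormone with the smallest p. OsCASP1 was added as the CASP gene of its list. Members and lists were chosen with earlier results of these data known. Alternatives were quantile normalization, median centring, no filter, a floor of 7, no intensity trend, each control set alone, a fit restricted to treated and control arrays, a block for replicate number, and omission of arrays in turn.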

Additional observations from a re-analysis of the deposited data

Results flagged for a closer look

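Of 61 named genes checked over the 4 control arrays, 1 had an array far from the rest. SIP2-1 stood at 6.69 and 6.72 in control1 and at 6.72 and 7.37 in control2, so the gap of the second control2 array to the nearest other was 0.953 of the whole range, above Dixon's 95% critical value for 4 values. Chance alone gives about 1 such gap in 20 groups.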

How the results depend on the processing

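The falls of Lsi1 and Lsi2 under ABA against the controls kept their direction and passed under the 9 alternatives and with each of 6 arrays left out, and those against ACC under the 6 alternatives and 4 left-out arrays run for that comparison. The fall of Lsi1 under BAP lost its call with quantile normalization (-1.49, adjusted p = 0.0611), no filter (-1.50, adjusted p = 0.0844), no intensity trend (-1.50, adjusted p = 0.0534), the replicate block (-1.50, adjusted p = 0.0545), control1 alone (-1.21) and only the treated and control arrays (-1.50, adjusted p = 0.108). The fall of Lsi1 under SA lost it with quantile normalization (-1.14, adjusted p = 0.055), no filter (-1.20, adjusted p = 0.0841), control1 alone (-0.91) and only the treated and control arrays (-1.20, adjusted p = 0.199). Leaving out 1 array at a time gave -1.63 to -1.39 for Lsi1 under BAP (adjusted p from 0.0273 to 0.317), -1.94 to -0.46 under SA, and -2.78 to -1.93 for Lsi2 under BAP, which passed without control1 replicate 2 (-2.59, adjusted p = 0.0392). SA minus JA for Lsi1 ran from -1.76 to -0.28. With control2 alone Lsi2 under BAP (-2.84) and Lsi1 under IAA (-1.10) passed, Lsi2 under JA turned to -0.083 and Lsi1 under ACC to -0.15, and with control1 alone Lsi1 under JA turned to 0.11, none of these 3 past the threshold. The cause was not tested. Replicate numbers were not used as pairs in the main fit. Over 28 pairs of groups, r of the replicate deviations ran from -0.185 to 0.446 (median 0.036) and exceeded 0.1 in 10. Whether some replicates of equal number shared a source was not tested. The replicate block changed no call other than that of Lsi1 under BAP. Whether low signal set the size of the Lsi2 fall under ABA was not tested.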
